A study of Mus musculus with 1 sample.

Results

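The genes described here encode the nuclear and mitochondrial subunits of the respiratory chain and of ATP synthase. Members were all rows whose symbol begins with *Ndufa*, *Ndufb*, *Ndufc*, *Ndufs* or *Ndufv* and a digit, with *Uqcr*, with *Atp5*, or with *mt-Nd*, *mt-Co*, *mt-Cyb* or *mt-Atp*, with *Ndufa4l2* left out, and with a unique molecular identifier (UMI) in at least 3 barcodes. This rule gave 74 genes, all 74 rows that match by name, of 18713 genes detected at the same minimum and 32285 rows in all. Of these, 62 were nuclear and 12 mitochondrial. Of the nuclear members, 37 carried complex I symbols, 8 belonged to complex III and 17 to ATP synthase (complex V), and the mitochondrial members comprised 7 subunits of complex I, 3 of complex IV and 2 of complex V. The symbol of mitochondrial cytochrome b is *mt-Cytb* in these data and is not matched by the rule, so this gene was not a member and is given only beside the others.

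The cells came from adrenal medullae of wild-type mice at postnatal day 15, on a mixed background backcrossed to CD1. A single library of droplet-based single-cell RNA sequencing was made from 10 adrenals of 5 mice of both sexes, pooled after manual removal of most of the cortex. With 1 library there were no replicates, so no test between groups of cells could be made. Every value is therefore a description of this library, and its 95% interval covers counting error only. Levels are given in CPM, the summed UMIs of a gene or group of genes per 1000000 UMIs of the cells named, and were not divided by transcript length, since 3′ sequencing counts each molecule once.

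The respiratory chain passes electrons from NADH and succinate through complexes I, II, III and IV to oxygen and pumps protons across the inner mitochondrial membrane. ATP synthase lets these protons flow back through a ring of c subunits and makes ATP in its F1 head. The mitochondrial genome encodes the hydrophobic core subunits, while the nuclear genome encodes all others, so each complex other than complex II needs both genomes. In the adrenal cortex, mitochondria also hold the side-chain cleavage and 11β-hydroxylase enzymes of steroid synthesis, while chromaffin cells of the medulla make and store catecholamines.

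After quality control 10139 of 11214 barcodes remained, with a median of 3567 UMIs. Clustering without the members gave 19 clusters, and 9641 cells fell into clusters named from marker genes: 3715 cortex-like, 2311 chromaffin-like, 2149 endothelial-like, 709 immune-like, 457 transitioning-like (chromaffin and sustentacular markers together), 206 sustentacular-like and 94 fibroblast-like. A further 455 cells lay in clusters with markers of more than 1 class and 43 cells were unnamed. Depth differed between classes, with a median of 5330 UMIs in cortex-like, 3193 in chromaffin-like, 2004 in endothelial-like and 1235.5 in sustentacular-like cells. *Star*, a cortical marker, had 63.4 CPM in chromaffin-like and 78.9 CPM in endothelial-like cells against 6311 CPM in cortex-like cells, and *Chga*, a chromaffin marker, had 50.1 CPM in cortex-like against 20109 CPM in chromaffin-like cells. In the immune-like and fibroblast-like classes *Star* reached 1040 and 924 CPM, and Scrublet called 17.2% of immune-like cells doublets, so transcripts of other cells were more abundant there. Within the immune-like class *Star* had 3449 CPM in the cycling and 84.9 CPM in the non-cycling cluster. *Chga* ran the other way, with 216 CPM in the cycling and 1638 CPM in the non-cycling cluster. Scrublet also called 47.3% of the cycling chromaffin-like, 43.8% of the cycling immune-like and 12.6% of the non-cycling immune-like cells. The part of these transcripts in the values of those groups was not tested.

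Over whole classes both groups of members were highest in cortex-like cells, the nuclear members were lowest in sustentacular-like and the mitochondrial members lowest in endothelial-like cells. The 62 nuclear members summed to 36952 CPM in cortex-like, 24770 in chromaffin-like, 23944 in transitioning-like, 20021 in immune-like, 19389 in fibroblast-like, 18034 in endothelial-like and 17345 in sustentacular-like cells. The 12 mitochondrial members summed to 68593 CPM in cortex-like, 53064 in chromaffin-like, 48148 in transitioning-like, 35398 in sustentacular-like, 32866 in fibroblast-like, 32140 in immune-like and 25477 in endothelial-like cells. Without its cycling cluster, the immune-like class had 16893 CPM of nuclear and 26913 CPM of mitochondrial members. Its nuclear level was then below that of the other classes, but its interval (16670 to 17118) overlapped with the sustentacular-like one (16875 to 17826). In the orders of whole classes, neighbouring intervals overlapped only between fibroblast-like cells and the immune-like class, for the mitochondrial members and, barely, for the nuclear ones. Endothelial-like cells were therefore low in mitochondrial more than in nuclear members, with 1.41 mitochondrial UMIs for each nuclear UMI, against 1.86 in cortex-like, 2.04 in sustentacular-like and 2.14 in chromaffin-like cells. Across all members, 51 of 62 nuclear and 12 of 12 mitochondrial genes had their highest level among the 7 classes in cortex-like cells, and 33 nuclear members had their lowest level in sustentacular-like cells. These counts have no share over all genes beside them, so they are not read as a trait of the members. The sustentacular-like class also held only 297140 UMIs. The middle 50% of cells held 3.17 to 4.39% nuclear-member UMIs in the cortex-like, 2.08 to 2.96% in the chromaffin-like and 1.56 to 2.19% in the endothelial-like class. The range of the whole cortex-like class thus lay above the chromaffin-like range, while the chromaffin-like and endothelial-like ranges overlapped. As whole classes, cortex-like and chromaffin-like cells overlapped only further out, with a cortex-like 5th percentile of 2.35% and a chromaffin-like 95th percentile of 3.90%. The cortex-like cluster led by *Wnt4* had a middle range of 2.49 to 3.34%, which overlapped with the chromaffin-like one. Those of the other cortex-like clusters lay above the chromaffin-like range.

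**Figure D1:**
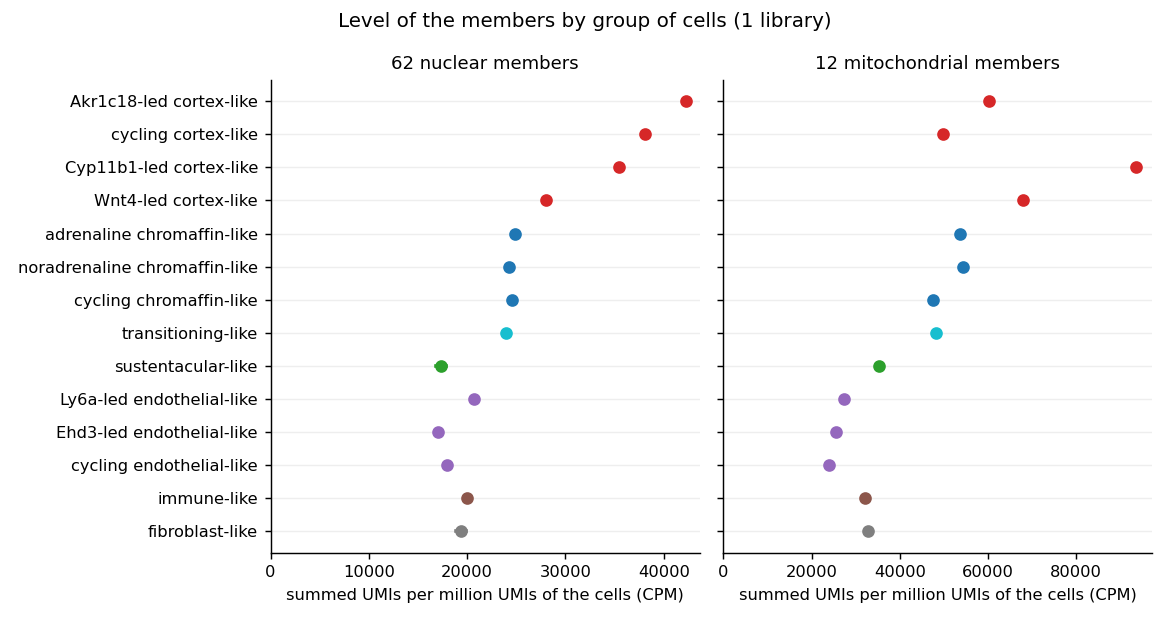
Summed level of the 62 nuclear members (left) and the 12 mitochondrial members (right) in CPM for 14 groups of cells of the 1 library. Points are levels, lines are exact Poisson 95% intervals (mostly within the points), and colours mark classes. Nuclear members ran from 16994 CPM in *Ehd3*-led endothelial-like to 42240 CPM in *Akr1c18*-led cortex-like cells, and mitochondrial members from 24050 CPM in cycling endothelial-like to 93566 CPM in *Cyp11b1*-led cortex-like cells.

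Promoters of the members that stood furthest apart are shown first, since the results below return to these genes. RefSeq windows (build GRCm38.p6) of 300 bases, from 250 bases before to 50 after the annotated start, were at hand for 51 of the 62 nuclear members. The lines show *Uqcr10*, at the cortex-like end of the range, *Ndufv3*, at the chromaffin-like end, and the *Atp5g1*, *Atp5g2* and *Atp5g3* genes, which encode the same mature subunit c. Capitals mark exact matches, on either strand, to TGCGCA (the core of the NRF1 motif), CCGGAAG (the core of the ETS motif), AAGATGG (YY1), AAGGTCA (the element bound by oestrogen-related receptors and by steroidogenic factor 1, which this search cannot tell apart) or GGGCGG (GC box).
Uqcr10, chr11:4704295-4704594, minus strand: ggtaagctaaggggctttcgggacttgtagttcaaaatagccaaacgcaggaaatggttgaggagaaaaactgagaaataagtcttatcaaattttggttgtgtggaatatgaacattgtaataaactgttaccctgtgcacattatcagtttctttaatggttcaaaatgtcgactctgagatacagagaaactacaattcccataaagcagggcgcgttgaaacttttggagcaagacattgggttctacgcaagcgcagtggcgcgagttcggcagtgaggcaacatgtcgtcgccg
Ndufv3, chr17:31519865-31520164, plus strand: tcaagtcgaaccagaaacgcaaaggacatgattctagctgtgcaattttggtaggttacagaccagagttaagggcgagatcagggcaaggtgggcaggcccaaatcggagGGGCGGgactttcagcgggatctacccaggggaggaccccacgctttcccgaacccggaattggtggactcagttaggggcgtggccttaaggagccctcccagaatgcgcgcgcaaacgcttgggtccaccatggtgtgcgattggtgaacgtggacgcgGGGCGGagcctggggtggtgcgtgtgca
Atp5g1, chr11:96075582-96075881, minus strand: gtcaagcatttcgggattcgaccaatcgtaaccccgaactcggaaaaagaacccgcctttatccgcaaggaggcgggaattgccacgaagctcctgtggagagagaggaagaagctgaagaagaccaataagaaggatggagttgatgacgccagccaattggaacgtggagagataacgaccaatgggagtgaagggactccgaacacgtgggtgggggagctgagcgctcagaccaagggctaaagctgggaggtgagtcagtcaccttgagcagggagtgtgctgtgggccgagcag
Atp5g2, chr15:102670998-102671297, minus strand: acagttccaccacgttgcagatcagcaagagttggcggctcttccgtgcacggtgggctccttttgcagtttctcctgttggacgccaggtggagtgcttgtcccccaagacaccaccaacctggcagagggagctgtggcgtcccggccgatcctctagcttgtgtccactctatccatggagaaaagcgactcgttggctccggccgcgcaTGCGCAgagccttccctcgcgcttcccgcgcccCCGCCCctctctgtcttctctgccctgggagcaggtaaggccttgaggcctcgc
Atp5g3, chr2:73911277-73911576, minus strand: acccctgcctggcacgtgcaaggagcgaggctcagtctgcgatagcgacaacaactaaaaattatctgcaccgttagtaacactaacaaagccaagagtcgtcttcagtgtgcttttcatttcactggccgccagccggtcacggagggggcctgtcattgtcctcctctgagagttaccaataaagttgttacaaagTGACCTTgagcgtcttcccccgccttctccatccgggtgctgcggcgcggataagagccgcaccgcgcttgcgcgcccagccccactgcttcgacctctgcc

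The NRF1 core lay in the windows of 13 of 51 members (25.5%), against 8.79% of the 27025 genes with a window outside chromosome 18. The ETS core lay in 12 members (23.5%, against 9.93%), the YY1 core in 9 (17.6%, against 7.28%), AAGGTCA in 7 (13.7%, against 5.38%) and the GC box in 19 (37.3%, against 38.2%). Base composition differed too, with a median GC content of 58% in the members' windows and 52.7% in all windows. Among the 23 members with a window and a level at least 1.5-fold higher in cortex-like than in chromaffin-like cells, 5 held the NRF1 core and 2 held AAGGTCA. Among the other 28 members, 8 and 5 did. Of the windows printed, *Atp5g2* held 1 NRF1 core and 1 GC box, *Atp5g3* held AAGGTCA once, on the opposite strand, *Ndufv3* held 2 GC boxes, and *Uqcr10* and *Atp5g1* held none of the 5 motifs. These matches are a description of letters in a fixed window and were not linked to binding.

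To compare the steroid-producing with the catecholamine-producing cells, cortex-like was set against chromaffin-like. The nuclear group was 1.49-fold (95% interval 1.49 to 1.5) and the mitochondrial group 1.29-fold (1.29 to 1.30) higher in cortex-like cells. These ratios pool unlike cortex-like clusters, with nuclear levels from 28001 CPM (*Wnt4*-led) to 42240 CPM (*Akr1c18*-led). Mitochondrial levels ran from 49740 CPM (cycling), below the chromaffin-like level, to 93566 CPM (*Cyp11b1*-led). *Cyp11b1* itself had 41.1 CPM in *Akr1c18*-led and 4703 CPM in *Cyp11b1*-led cells. The ratios to chromaffin-like cells below are those of the pooled class. Of the nuclear members 30 of 62 (48.4%) were at least 1.5-fold higher and 1 (1.61%) at least 1.5-fold lower. Over all 6174 genes with a mean of at least 20 CPM in the pair, 28.1% passed this fold upwards and 24.4% downwards, and the median ratio was 1.04 against 1.48 for the nuclear and 1.44 for the mitochondrial members. Of the mitochondrial members 6 of 12 passed upwards and 0 downwards. The counting interval lay above 1 for 52 nuclear members, below 1 for 5 and held 1 for 5. In cells of 2000 to 4000 UMIs alone the 2 ratios were 1.60 and 1.19. With a stricter limit of 10% on mitochondrial UMIs and 1000 genes, the mitochondrial ratio was 1.11.

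Complex III, which takes electrons from ubiquinol to cytochrome c, differed most. Its 8 nuclear members summed to 7819 CPM in cortex-like and 3995 CPM in chromaffin-like cells, a ratio of 1.96 (1.94 to 1.98), and 6 of 8 passed 1.5-fold upwards. *Uqcrq*, a small accessory subunit of complex III, had 2272 CPM in cortex-like cells and between 451 and 780 CPM in the 6 other classes, so its cortical level stood clear of all of them. Its ratio to chromaffin-like cells, 3.81 (3.71 to 3.91), was the highest of the 74 members. *Uqcr10*, another small subunit, had 1660 CPM against 560 CPM, a ratio of 2.97 (2.89 to 3.05), and *Uqcr11* had 1394 against 793 CPM, a ratio of 1.76. *Uqcrh*, the hinge protein that contacts cytochrome c1, went the other way: with 998 CPM in cortex-like against 1123 CPM in chromaffin-like cells it had a ratio of 0.889 (0.869 to 0.909). The core proteins *Uqcrc1* and *Uqcrc2* and the Rieske iron-sulfur protein *Uqcrfs1* had ratios of 2.14, 1.70 and 1.85.

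Complex I oxidises NADH. The 37 nuclear members with complex I symbols, which include *Ndufa4*, were as a whole 1.46-fold higher in cortex-like cells, but the parts of the complex differed. The 7 nuclear subunits of the catalytic core had a ratio of 1.88 (1.84 to 1.93) and the 29 accessory subunits a ratio of 1.37 (1.36 to 1.38). *Ndufs8*, an iron-sulfur subunit of this core, had 291 CPM in cortex-like and 112 CPM in chromaffin-like cells, a ratio of 2.59 (2.44 to 2.76), and *Ndufs3*, also a core subunit, had a ratio of 2.37. *Ndufs7*, an iron-sulfur core subunit, had 259 against 247 CPM, a ratio of 1.05. The 3 most abundant nuclear members with complex I symbols were all higher in cortex-like cells: *Ndufa4*, now assigned to complex IV, with 1557 against 696 CPM, *Ndufc1* with 1086 against 472 CPM, and *Ndufa6* with 992 against 364 CPM.

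*Ndufv3* ran opposite to its complex. This accessory subunit of the NADH-binding module had 904 CPM in noradrenaline and 853 CPM in adrenaline chromaffin-like cells, 751 in transitioning-like, 488 in cortex-like, 385 in immune-like, 289 in sustentacular-like, 239 in fibroblast-like and 192 in endothelial-like cells. It was the 1 member at least 1.5-fold lower in cortex-like than in chromaffin-like cells, with a ratio of 0.578 (0.562 to 0.594). It also had the lowest ratio of all members in endothelial-like cells, 0.227 (0.213 to 0.242), and in sustentacular-like cells, 0.343 (0.274 to 0.424), each against chromaffin-like. The noradrenaline and adrenaline intervals, 857 to 953 and 832 to 874 CPM, overlapped. *Ndufv1* and *Ndufv2*, which form the same module, had ratios of 1.88 and 1.52 in cortex-like over chromaffin-like cells.

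For ATP synthase the nuclear members were 1.33-fold higher in cortex-like cells (12430 against 9352 CPM), and 7 of 17 passed 1.5-fold. *Atp5b* and *Atp5a1*, the catalytic β and the α subunits of the F1 head, had ratios of 2.78 (2.68 to 2.89) and 2.26 (2.17 to 2.35). *Atp5e*, the small ε subunit of the same head and the most abundant ATP synthase member over all cells, stood at 1090 CPM in cortex-like against 1393 CPM in chromaffin-like cells, which gave 0.782 (0.766 to 0.798) as the ratio. The F1 head therefore held members that differed in opposite directions. The peripheral stalk had a ratio of 1.6, with 1236 against 611 CPM for *Atp5j*, and *Atp5l*, a membrane subunit, had 1200 against 912 CPM.

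**Figure D2:**
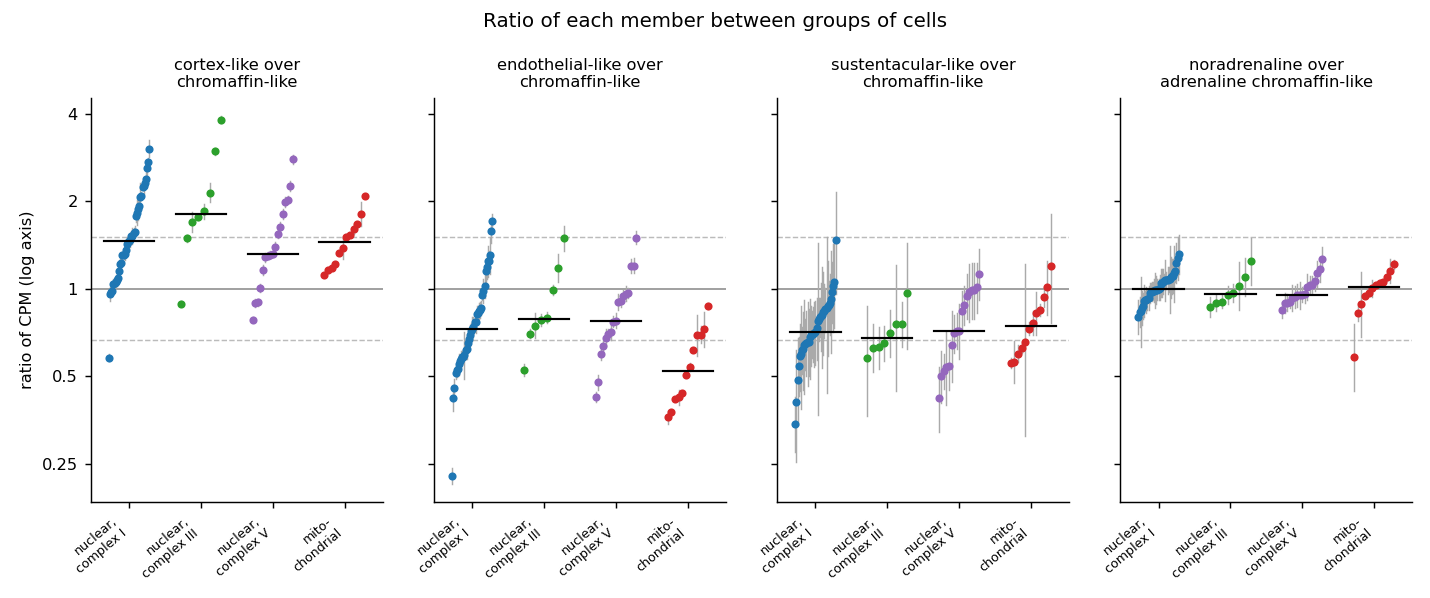
Ratio of CPM for each of the 74 members in 4 pairs of groups of cells (log axis), by genome and complex. Points are members in order of their ratio, grey lines are exact conditional 95% intervals, black bars are medians, the solid line marks a ratio of 1 and dashed lines 1.5-fold. In cortex-like over chromaffin-like cells ratios ran from 0.578 to 3.81, and in noradrenaline over adrenaline chromaffin-like cells from 0.583 to 1.31.

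The 3 subunit c genes showed that nearly equal sums can hide different mixtures. Together *Atp5g1*, *Atp5g2* and *Atp5g3* had 1827 CPM in cortex-like and 1731 CPM in chromaffin-like cells, a ratio of 1.06 (1.04 to 1.07). *Atp5g3* was higher in cortex-like cells, with 553 against 307 CPM, whereas *Atp5g1* had 704 against 785 CPM and *Atp5g2* 570 against 639 CPM. *Atp5g3* hence made up 30.3% (29.8 to 30.7, exact binomial) of subunit c UMIs in cortex-like cells, 17.7% (17.1 to 18.3) in chromaffin-like, 17.8% (16.9 to 18.7) in endothelial-like and 18.1% (13.7 to 23.3) in sustentacular-like cells. In fibroblast-like cells it made up 25.1% (20.6 to 30.1) of 342 UMIs. The immune-like class had 20.9% (19.2 to 22.6), and its non-cycling cluster 18.0% (16.1 to 19.9). Within the cortex its share was 33.5% in *Akr1c18*-led, 28.4% in *Cyp11b1*-led and 25.01% in *Wnt4*-led cells. In endothelial-like cells *Atp5g2* had 42.1% (40.9 to 43.3) and *Atp5g1* 40.1% (38.9 to 41.3), and these intervals overlapped. The cycling endothelial-like cluster had 45.9% for *Atp5g2* and 36.5% for *Atp5g1*, and without it the shares in the class were 40.6% and 41.6%, with overlapping intervals. The 2 non-cycling clusters differed in order, with 41.4% for *Atp5g2* and 40.5% for *Atp5g1* in the *Ehd3*-led and 38.8% and 43.7% in the *Ly6a*-led cluster. In cycling cortex-like cells *Atp5g2* had 35.7% and *Atp5g1* 30.7%. In sustentacular-like cells the 3 genes summed to 909 CPM, 0.525 of the chromaffin-like level (0.464 to 0.592), from 270 UMIs.

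**Figure D3:**
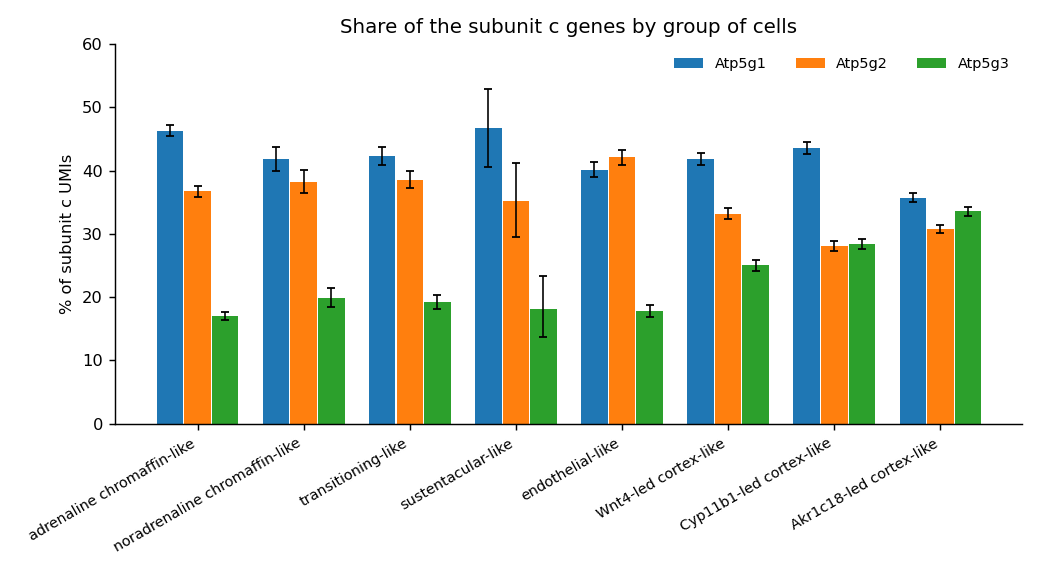
Share of *Atp5g1*, *Atp5g2* and *Atp5g3* in the summed subunit c UMIs (per cent) in 8 groups of cells, with exact binomial 95% intervals. The share of *Atp5g3* was between 16.98% and 19.9% in the medullary and endothelial-like groups and between 25.01% and 33.5% in the 3 cortex-like clusters. Immune-like and fibroblast-like cells are not shown.

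Endothelial-like cells were then compared with chromaffin-like cells. The nuclear group had a ratio of 0.728 (0.723 to 0.733) and the mitochondrial group a ratio of 0.480 (0.477 to 0.483). At least 1.5-fold lower were 20 of 62 nuclear (32.3%) and 8 of 12 mitochondrial members (66.7%), against 24.9% of 6462 genes tested. At least 1.5-fold higher were 2 nuclear and 0 mitochondrial members, against 30.7% of genes. The median ratio was 0.767 for nuclear and 0.521 for mitochondrial members, and 1.08 for all genes. Each of the 12 mitochondrial members had an interval below 1.

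The low ratios in endothelial-like cells did not extend to the summed level of all parts of the complexes. The 7 nuclear core subunits of complex I had 774 CPM in endothelial-like and 798 CPM in chromaffin-like cells, a ratio of 0.969 (0.934 to 1.01), while the accessory subunits had a ratio of 0.653 (0.645 to 0.661). The nearly equal sum of the core held members that differed in opposite directions. *Ndufs1* had a ratio of 0.590 (0.490 to 0.707) and *Ndufs7* 0.619 (0.572 to 0.668). Others were above 1, among them *Ndufv1* with 1.24 (1.10 to 1.40) and *Ndufs8* with 1.15 (1.04 to 1.26). The peripheral stalk of ATP synthase had a ratio of 0.984 (0.961 to 1.01). *Ndufc2*, an accessory subunit of the membrane arm, was highest in endothelial-like cells, with 464 CPM against 272 in chromaffin-like, 330 in cortex-like and 166 in immune-like cells, and its ratio to chromaffin-like was 1.71 (1.62 to 1.8). *Atp5b* had a ratio of 1.499 (1.42 to 1.58), just short of 1.5-fold. At the other end, after *Ndufv3*, were *mt-Nd5* with 0.361 and *mt-Nd4* with 0.376.

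Sustentacular-like cells, the glia-like support cells of the medulla, were low in both groups and alike in the balance between genomes. Against chromaffin-like cells the nuclear group had a ratio of 0.700 (0.681 to 0.720) and the mitochondrial group 0.667 (0.654 to 0.680). At least 1.5-fold lower were 23 of 62 nuclear and 5 of 12 mitochondrial members, against 25.8% of 6490 genes tested. At least 1.5-fold higher were 0 members, against 27.8% of genes. After *Ndufv3* the lowest ratios belonged to *Ndufa1*, with 74.0 against 182 CPM, and to *Atp5md*, with 212 against 504 CPM. The highest were *Ndufv1* (1.47), *mt-Nd6* (1.2) and *Atp5b* (1.13), and each of these intervals held 1, as for 28 of 74 members at this depth. The interval of no member lay above 1. In cells of 2000 to 4000 UMIs, 27 of the 206 sustentacular-like cells, the ratios were 0.629 and 0.595.

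Transitioning-like cells, which carry sustentacular and chromaffin markers, lay between the whole sustentacular-like and chromaffin-like classes in the summed level of both groups, and their intervals overlapped with neither class. Against single chromaffin-like clusters this order did not hold throughout. Their nuclear level (23764 to 24125 CPM) was above that of the *Slc6a4*-led cluster (23471 CPM) and overlapped with the noradrenaline one (23994 to 24484 CPM). Their mitochondrial level (48148 CPM) was near that of cycling chromaffin-like cells (47505 CPM), with barely overlapping intervals. Their median depth was 5241 UMIs, above that of both classes. Chromaffin-like cells of 1000 to 2000 UMIs had 28730 CPM of nuclear and 58450 CPM of mitochondrial members. At 4000 to 8000 UMIs the levels were 24373 and 54173 CPM. The part of depth in the intermediate position was not tested. Against sustentacular-like cells the nuclear group was 1.38-fold (1.34 to 1.42) and the mitochondrial group 1.36-fold (1.33 to 1.39) higher. The largest of these ratios was that of *Ndufv3*, 2.59 (2.09 to 3.26), and *Ndufa1* had 2.22 (1.45 to 3.58). *mt-Nd6*, a gene of low level, was lower, with 40.6 against 80.8 CPM, a ratio of 0.503 with a wide interval (0.322 to 0.817).

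The noradrenaline and adrenaline chromaffin-like cells differed little. The nuclear group had 24238 CPM in noradrenaline and 24906 CPM in adrenaline cells, a ratio of 0.973 (0.962 to 0.984), and the mitochondrial group 54398 and 53647 CPM, a ratio of 1.01 (1.01 to 1.02). At least 1.5-fold higher were 0 of 74 members, against 10.4% of 6003 genes tested, and 1 was at least 1.5-fold lower, against 7.58% of genes. This was *mt-Nd6*, with 42.5 CPM in noradrenaline and 72.8 CPM in adrenaline cells, a ratio of 0.583 (0.445 to 0.754). The next lowest were *Ndufb3* (0.8) and *mt-Nd5* (0.822), and among the highest were *Ndufs3* (1.31) and *Atp5b* (1.27). The interval held 1 for 43 members. Larger than the difference between the lineages was that between the 2 adrenaline clusters. The *Slc6a4*-led cluster, with a median of 7288.5 UMIs, had 23471 CPM of nuclear members, and the *Pnmt*-led cluster, with 2497 UMIs, had 26980 CPM, a ratio of 0.870. The mitochondrial ratio was 0.884. Within adrenaline cells nuclear levels were lower at greater depth, with 29254 CPM in cells of 1000 to 2000 UMIs and 24099 CPM in cells of 8000 UMIs or more.

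The mitochondrial members, which are transcribed as long polycistronic RNAs, differed between classes by unequal amounts. In GENCODE M21 (GRCm38) 11 of the 12 lie on the plus strand of the mitochondrial genome and *mt-Nd6* lies on the minus strand. *mt-Co1* and *mt-Co3*, core subunits of cytochrome c oxidase, had 14302 and 14068 CPM in chromaffin-like cells, and *mt-Atp8* and *mt-Nd6* only 51.5 and 67.3 CPM. In cortex-like over chromaffin-like cells the ratio was 2.09 for *mt-Nd1*, 1.8 for *mt-Atp8*, 1.67 for *mt-Nd2*, 1.6 for *mt-Nd3*, 1.53 for *mt-Atp6*, 1.5 for *mt-Nd4l*, 1.38 for *mt-Nd6*, 1.32 for *mt-Co2*, 1.22 for *mt-Nd4*, 1.18 for *mt-Co1*, 1.16 for *mt-Nd5* and 1.12 for *mt-Co3*. The complex IV members together had a ratio of 1.18, and those of complexes I and V 1.5 and 1.53. *mt-Nd1* and *mt-Nd2*, subunits of the membrane arm of complex I, thus made up 6.97% and 4.70% of mitochondrial-member UMIs in cortex-like cells against 4.31% and 3.64% in chromaffin-like cells. In endothelial-like cells the ratio of *mt-Nd1*, 0.87, was the highest of the 12, with 1990 against 2289 CPM. *mt-Cytb*, the complex III subunit outside the rule, had 8149 CPM in cortex-like, 7086 in chromaffin-like, 4173 in sustentacular-like and 2627 in endothelial-like cells. *mt-Atp8* and *mt-Atp6* share 43 bases and *mt-Nd4l* and *mt-Nd4* share 7, so that reads there are uncertain between the genes of a pair.

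**Figure D4:**
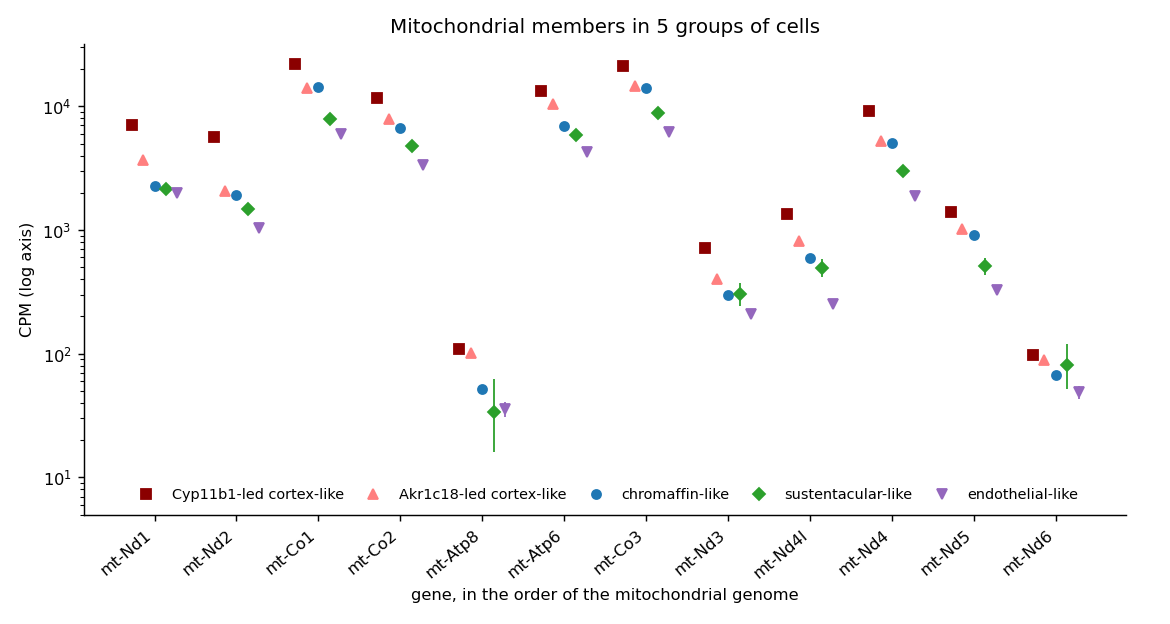
Level of the 12 mitochondrial members in CPM (log axis), in the order of the mitochondrial genome, in 5 groups of cells. Symbols are levels and lines exact Poisson 95% intervals. *Cyp11b1*-led cortex-like cells were highest for all 12 members, with 22098 CPM for *mt-Co1* and 5622 CPM for *mt-Nd2*, and endothelial-like cells were lowest for 11 of them.

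Within the cortex-like class the nuclear and mitochondrial members were ordered differently. The cluster led by *Akr1c18* (1698 cells) had the highest nuclear level of the 4 cortex-like clusters, 42240 CPM, and 60324 CPM of mitochondrial members. The cluster led by *Cyp11b1*, the 11β-hydroxylase gene (878 cells), had 35430 CPM of nuclear and 93566 CPM of mitochondrial members, and the cluster led by *Wnt4* (838 cells) had 28001 and 67912 CPM. The cycling cortex-like cluster (301 cells) had 38092 and 49740 CPM, so that its mitochondrial level was below that of the whole chromaffin-like class. Mitochondrial UMIs for each nuclear UMI hence were 1.31 in the cycling, 1.43 in the *Akr1c18*-led, 2.43 in the *Wnt4*-led and 2.64 in the *Cyp11b1*-led cluster. The *Cyp11b1*-led over *Akr1c18*-led ratio was 0.839 (0.834 to 0.843) for the nuclear and 1.55 (1.55 to 1.56) for the mitochondrial group.

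All 12 mitochondrial members had a ratio above 1 in this pair, and 52 of 62 nuclear members a ratio below 1. The shares of all genes above and below 1 are not given, so only the 1.5-fold counts have a background. At least 1.5-fold higher were 6 mitochondrial and 0 nuclear members, against 11.2% of 5504 genes tested, and at least 1.5-fold lower were 2 nuclear and 0 mitochondrial members, against 10.3% of genes. *mt-Nd2* had 5622 against 2071 CPM, a ratio of 2.71 (2.67 to 2.76), and *mt-Nd1* had 7068 against 3667 CPM, a ratio of 1.93. The 2 nuclear members were *Uqcrq*, with 1926 against 2971 CPM, and *Uqcr10*, with 1411 against 2153 CPM. *Atp5g1* had the highest nuclear ratio, 1.40 (1.35 to 1.45). The limit on mitochondrial UMIs bears on this pair: with at most 10% and at least 1000 genes, 371 *Cyp11b1*-led and 1486 *Akr1c18*-led cells remained and the mitochondrial ratio was 1.24, with 0.850 for the nuclear members. At 2000 to 4000 UMIs the ratios were 1.66 and 0.941.

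**Figure D5:**
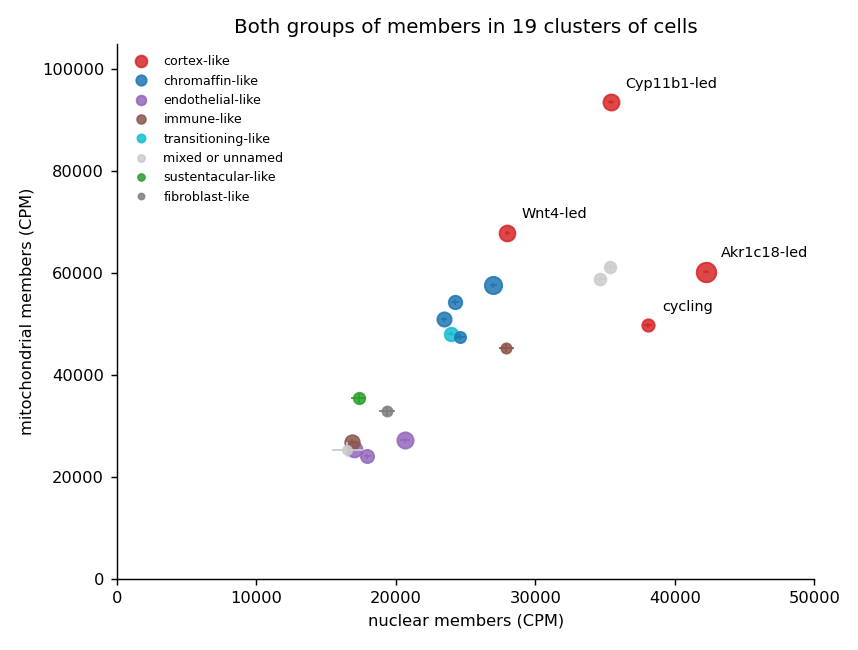
Nuclear against mitochondrial members, in CPM, in the 19 clusters of the library. Each point is a cluster, and larger points hold more cells, though area is not proportional to their number. Lines are exact Poisson 95% intervals, colours mark classes, and the 4 cortex-like clusters are labelled by a leading gene or as cycling. Most clusters rise together (Pearson r = 0.772, Spearman rho = 0.849, n = 19 clusters of 1 library), whereas the *Akr1c18*-led cluster has the highest nuclear level and the *Cyp11b1*-led cluster the highest mitochondrial level.

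That correlation is a description of clusters that share a library and a common denominator. The *Wnt4*-led cluster was lower than the *Akr1c18*-led cluster for 57 of 62 nuclear members, a count with no share over all genes beside it. At least 1.5-fold lower were 26 nuclear members (41.9%), against 17.7% of 5766 genes tested, and 0 were at least 1.5-fold higher, against 21.1% of genes. *Uqcr10* had 841 CPM there, a ratio of 0.390 (0.378 to 0.403), *Uqcrq* had 1175 CPM, a ratio of 0.395 (0.385 to 0.406), and *Ndufv3* had 272 against 607 CPM, a ratio of 0.449. In the endothelial-like class the *Ehd3*-led cluster (16994 CPM of nuclear members) was below the *Ly6a*-led cluster (20660 CPM), at median depths of 2962 and 1213 UMIs, and the mitochondrial levels were 25538 and 27244 CPM. Cycling clusters differed from other cells of their class by amounts that varied between classes. Among immune-like cells the cycling cluster, of which Scrublet called 43.8% doublets, had 27915 CPM of nuclear and 45330 CPM of mitochondrial members, against 16893 and 26913 CPM in the non-cycling cells. The nuclear and mitochondrial ratios were 0.995 and 0.924 for cycling over non-cycling endothelial-like cells, and 0.988 and 0.886 for cycling chromaffin-like over adrenaline cells. The cycling cortex-like cluster had ratios of 0.902 and 0.825 to the *Akr1c18*-led cluster, and its nuclear level was above, and its mitochondrial level below, those of the *Cyp11b1*-led and *Wnt4*-led clusters.

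Genes outside the rule were compared in the same way. The shares over all genes in cortex-like over chromaffin-like cells were 28.1% at least 1.5-fold higher and 24.4% at least 1.5-fold lower. In cortex-like over chromaffin-like cells 3 of the 4 complex II subunits passed 1.5-fold, led by *Sdhb*, the iron-sulfur subunit, with 3.06. Cytochrome c (*Cycs*) and cytochrome c1 (*Cyc1*) had ratios of 2.26 and 2.89, and *Ndufab1*, the complex I acyl carrier protein, had 1.6. Of 11 listed nuclear complex IV subunits 6 passed upwards and 0 downwards, with a median of 1.62, from 0.778 for *Cox7a2l* to 2.33 for *Cox6a1*. This list left out the complex IV genes *Cox8b* and *Cox7a1*, which differed far more and in opposite directions. *Cox8b* had 3.02 CPM in cortex-like and 401 CPM in chromaffin-like cells, and *Cox7a1* 108 and 4.10 CPM. For the tricarboxylic acid cycle 10 of 13 genes passed upwards, with a median of 2.03, led by *Suclg2* (6.81) and *Dld* (3.25). For the mitochondrial ribosome 47 of 75 measured genes passed upwards, with a median of 1.63, against 8 of 82 and a median of 1.11 for the cytosolic ribosome. Of 15 measured assembly factors 5 passed upwards, near the share over all genes, and 1 downwards. Among 14 glycolytic genes 5 passed upwards and 4 downwards, both near the shares over all genes. Their median was 0.91, from *Hk1* at 0.136 to *Hk2* at 17.2. Of the 5 measured regulators of mitochondrial gene expression 3 passed upwards, led by *Tfb2m*, a mitochondrial transcription factor, with 2.59. The 4 genes listed for mitochondrial steroid synthesis, some of which served as cortical markers, were far higher in cortex-like cells: 3273 against 88.3 CPM for the electron carrier *Fdx1*, 954 against 21.1 CPM for its reductase *Fdxr*, 4093 against 42.3 CPM for *Cyp11a1*, the side-chain cleavage enzyme, and 1673 against 10.4 CPM for *Cyp11b1*. The part of transcripts from other cells in the low chromaffin-like levels was not tested.

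In endothelial-like over chromaffin-like cells the median ratio was 0.98 for 70 mitochondrial ribosomal genes, 1.42 for 82 cytosolic ribosomal genes, 0.93 for 12 tricarboxylic acid cycle genes, 0.80 for 11 nuclear complex IV subunits and 0.58 for 12 glycolytic genes. In sustentacular-like over chromaffin-like cells it was 0.85 for 70 mitochondrial ribosomal genes, 0.75 for complex IV and 0.61 for 15 glycolytic genes. Of the glycolytic genes 10 passed 1.5-fold downwards and 2 upwards, *Ldhb* with 21.3 and *Aldoc* with 4.36. Over all genes of that pair 25.8% passed downwards and 27.8% upwards. In noradrenaline over adrenaline cells 0 of the 11 listed complex IV genes passed in either direction, against 10.4% of all genes upwards and 7.58% downwards. *Cox8b*, a complex IV gene outside this list, had 2494 CPM in noradrenaline and 20.5 CPM in adrenaline cells. Of 15 glycolytic genes *Ldha* was highest with 2.36 and *Pgk1* lowest with 0.377.

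The nuclear members lay on 19 chromosomes in GENCODE M21. Exons of 4 of them, *Atp5o*, *Ndufb2*, *Ndufb8* and *Ndufb9*, share bases on the same strand with another protein-coding entry, so part of their reads is uncertain. *Ndufb1-ps*, which carries a pseudogene symbol but matched the rule, had 442 CPM in cortex-like and 249 CPM in chromaffin-like cells. *Ndufa4l2*, left out by the rule, had 1092 CPM in chromaffin-like and 5.35 CPM in cortex-like cells, and so differed from *Ndufa4* in direction.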

How the data were processed

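One library of single cells from the P15 adrenal medulla was analysed. The deposited matrix held integer UMI counts per gene and barcode, made by the authors with Cell Ranger 4.0.0 on the mm10 build, per the submitters' processing notes, from 10x 3′ libraries and not normalised. The annotation release is not given in the sources used here. The counts summed to 51421499 UMIs in 11214 barcodes, from 500 to 33809 per barcode. Cells with 500 to 5000 genes and at most 20% mitochondrial UMIs were kept, as in the study's methods. Counts were log-normalised and clustered with Seurat 5.3.0 in R 4.3.3 (2000 variable features, 10 principal components, resolution 0.4), with the members and *mt-Cytb* left out of the variable features. Clusters took the name of a class if 3 or more of its markers each had UMIs in 50% of cells or more (25% for sustentacular and cycling markers), and *Pnmt* at that share separated adrenaline from noradrenaline clusters. Cortex-like, endothelial-like and adrenaline clusters are called by a leading gene. Doublets were called with Scrublet (scanpy 1.11.5), with 8% expected, and 669 cells (6.60%) were called but kept.

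UMIs were summed per class with Python 3.11.15, numpy 2.4.6, scipy 1.17.1 and pandas 2.3.3, and given as CPM with exact Poisson 95% intervals. Ratios have exact conditional (Clopper-Pearson) intervals. Genes with a mean of at least 20 CPM in a pair were compared, and a ratio of 1.5-fold or more counted as passing. The ratio and its interval were tested on simulated data. No pseudocount was used for ratios. With 1 library there was no test and no p-value.

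The members, marker lists and gene lists were chosen with earlier results of these data known. Named by rule were all mitochondrial members, the 3 most abundant nuclear members of each complex, the 3 highest and 3 lowest ratios of each of the 4 planned pairs, and the subunit c genes. A member that this rule names is not reported here by name. Other members named were chosen after their values were seen, as was the comparison of cortex-like clusters. The rule was planned with 13 mitochondrial rows in mind and gave 12. Alternatives comprised other clusterings, cell filters, depths, denominators and weightings. Promoters came from RefSeq (GRCm38.p6), and positions from GENCODE M21, which is the same build as mm10. Figures were drawn with matplotlib 3.10.9.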

Additional observations from a re-analysis of the deposited data

How the results depend on the processing

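Of 102 values recomputed under other settings, 56 stayed within the counting error of the value reported, 44 moved beyond it in the same direction and 2 changed direction. No paired analysis was possible because there is 1 library. The strict cell filter left no sustentacular-like cluster, so those ratios have no value under it. The causes of the moves were not tested.

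The nuclear ratio of cortex-like over chromaffin-like cells (1.49) was 1.54 at resolution 0.8, 1.56 under the strict filter (1000 genes, 10% mitochondrial UMIs), 1.52 with cells named from their own markers, 1.60 in cells of 2000 to 4000 UMIs, 1.52 per non-mitochondrial UMIs and 1.48 both as a mean over cells and without the cycling clusters. The mitochondrial ratio (1.29) was 1.30 at resolution 0.8, 1.11 under the strict filter, 1.30 with no upper mitochondrial limit, 1.29 without Scrublet doublets, 1.32 from own markers, 1.19 at 2000 to 4000 UMIs, 1.32 per non-mitochondrial UMIs, 1.25 as a mean, 1.28 with *mt-Cytb* and 1.32 without the cycling clusters. The number of nuclear members past 1.5-fold, 30, ranged from 27 to 36.

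The nuclear endothelial-like ratio (0.728) was 0.715 under the strict filter, 0.719 from own markers, 0.704 per non-mitochondrial UMIs and 0.740 as a mean. The mitochondrial ratio (0.480) was 0.485 under the strict filter, 0.487 with no limit, 0.477 without doublets, 0.451 at 2000 to 4000 UMIs, 0.464 per non-mitochondrial UMIs, 0.469 as a mean, 0.467 with *mt-Cytb* and 0.484 without the cycling clusters. The sustentacular-like ratios (0.700 and 0.667) were 0.629 and 0.595 at 2000 to 4000 UMIs, and the mitochondrial ratio was 0.653 per non-mitochondrial UMIs.

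For noradrenaline over adrenaline cells the nuclear ratio (0.973) was 0.988 at resolution 0.8 and 0.958 at 2000 to 4000 UMIs. The mitochondrial ratio (1.01) turned to 0.997 under the strict filter and 0.954 from own markers, so its direction depended on how cells were selected.

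For *Cyp11b1*-led over *Akr1c18*-led cells the nuclear ratio (0.839) was 0.850 in strictly filtered cells, 0.941 at 2000 to 4000 UMIs, 0.872 per non-mitochondrial UMIs and 0.856 as a mean. The mitochondrial ratio (1.55) was 1.24, 1.66, 1.61 and 1.60 in the same order, 1.57 without doublets and 1.52 with *mt-Cytb*. These, the *mt-Cytb* and the cycling alternatives were chosen after seeing the data.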
